A study of Mus musculus with 20 samples.

Results

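The miR-106b, miR-93 and miR-25 cluster was measured by small RNA sequencing in 20 libraries from mouse bone marrow cells in culture. The 5 arms described are miR-106b-5p, miR-106b-3p, miR-93-5p, miR-93-3p and miR-25-3p, out of 1230 miRNA arms with reads. They come from 3 of the 1178 annotated mouse miRNA hairpins, and were chosen by location: reads of 18 to 26 nt that matched 1 of these hairpins without mismatch, split by arm. The remaining arm of the same hairpins, miR-25-5p, is given as a value beside them. Levels are reads of an arm as counts per 1e6 miRNA hairpin reads (CPM).

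The libraries cover macrophages and dendritic cells, each from miR-155 knockout (KO, B6.Cg-Mir155tm1.1Rsky/J) and wild-type (WT, C57BL/6) mice, with LPS, oxLDL, eLDL, LDL or no stimulus, and there is 1 library per combination. All mice were killed at 8 to 12 weeks of age. Macrophages were grown from bone marrow with supernatant of an M-CSF hybridoma and dendritic cells with supernatant of a GM-CSF hybridoma. Dendritic cells received 200 ng/ml LPS, a bacterial cell wall lipid that activates Toll-like receptor signalling, overnight at day 8 to 9 of culture. For oxLDL, eLDL and LDL, the last being a cholesterol carrier of plasma, no dose is stated. No dose or time is stated for the macrophage stimuli either. Nor is it stated whether libraries that share cell type and genotype are from different animals or dishes. With no repeated condition, each p-value measures the scatter between matched libraries, which may be technical.

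A miRNA hairpin is cut by Drosha and Dicer into a duplex of 2 arms, of which the arm loaded into an Argonaute protein persists and the other is mostly degraded. Bases 2 to 8 of the loaded arm, the seed, choose the mRNAs that it represses. The cluster lies in an intron of Mcm7, which codes for a subunit of the helicase that unwinds DNA for replication, and it is a paralogue of the miR-17 cluster. In mouse and human cells these miRNAs are known to repress cell cycle inhibitors such as Cdkn1a and the apoptosis gene Bcl2l11.

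On GRCm38 all 3 hairpins lie on the minus strand of chromosome 5, within 498 bases. Mir106b is at chr5:138165737-138165818, Mir93 at chr5:138165523-138165610 and Mir25 at chr5:138165321-138165404, in the order of transcription, with 126 and 118 bases between neighbours. All 3 are inside the 748-base intron between exons 13 and 14 of the 15-exon Mcm7 transcript ENSMUST00000000505.15. Mir93 and Mir25 also lie in exon 1 of the short transcript ENSMUST00000125316.1, and Mir106b overlaps no Mcm7 exon.

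The mature sequences below are from RefSeq (GRCm38.p6), with the seed in capitals. They are shown because miR-106b-5p and miR-93-5p share the seed AAAGUGC with miR-17-5p and miR-20a-5p, and miR-25-3p shares AUUGCAC with miR-92a-3p and miR-32-5p, so that members of the cluster and of the paralogous clusters can bind the same sites.
miR-106b-5p: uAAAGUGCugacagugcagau
miR-93-5p: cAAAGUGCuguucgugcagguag
miR-17-5p: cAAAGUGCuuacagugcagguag
miR-20a-5p: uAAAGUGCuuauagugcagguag
miR-25-3p: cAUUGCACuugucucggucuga
miR-92a-3p: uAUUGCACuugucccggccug
miR-32-5p: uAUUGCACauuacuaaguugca

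The 3 arms from the opposite strands of the hairpins each have a seed of their own. Reads of miR-106b-3p had a second 5′ end 2 bases upstream of the RefSeq start, so the most abundant read of each start is printed from the deposited files below the RefSeq sequence, with bases 2 to 8 in capitals.
miR-93-3p: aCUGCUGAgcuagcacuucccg
miR-25-5p: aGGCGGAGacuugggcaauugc
miR-106b-3p: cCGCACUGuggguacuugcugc
miR-106b-3p, main start, most abundant read: cCGCACUGuggguacuugcug
miR-106b-3p, start 2 bases upstream, most abundant read: uACCGCACuguggguacuugcu

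Macrophage libraries held 13.5 to 22.8 M reads and 6.44 to 11.8 M miRNA reads, and dendritic cell libraries 10.3 to 17.1 M and 5.07 to 10.6 M. The deleted gene followed its labels: miR-155-5p had at most 5.89 CPM in KO and at least 5348 CPM in WT macrophages, and at most 0.79 CPM in KO and at least 129.3 CPM in WT dendritic cells. The myeloid miRNAs miR-223-3p (at least 802.8 CPM) and miR-142a-5p (at least 13814 CPM) were abundant in every library. Of 7 markers of other cells, the summed level was 100 to 186 CPM in KO and 138 to 344 CPM in WT macrophages, and 34.4 to 95.9 CPM in KO and 82.3 to 288 CPM in WT dendritic cells. Among them the erythroid miR-451a and miR-144-3p stayed at or below 6.23 CPM, while the lymphoid miR-150-5p had 63.5 to 167.7 CPM in macrophages and 6.23 to 24.2 CPM in dendritic cells. The stromal miR-143-3p ran from 0.637 to 267.3 CPM in macrophages and 1.86 to 150.6 CPM in dendritic cells. The stromal miR-145a-5p had 0 to 1.948 CPM in macrophages and 0 to 4.735 CPM in dendritic cells. The stromal miR-199a-3p, counted with the identical miR-199b-3p, had 0.212 to 9.60 CPM in macrophages and 19.6 to 127.6 CPM in dendritic cells. The liver or serum miR-122-5p stayed at or below 4.587 CPM. Thus miR-199a-3p and miR-150-5p each separated the cell types, in opposite directions. The part of these other cells in any result was not tested. In all 10 macrophage libraries 6.7 to 7.01% of the reads had no base call at position 20, against at most 8.55e-06% in dendritic cells, so cell type and this difference in the reads cannot be told apart. Allowing any base at position 20 added 13.1 to 13.7% to the miRNA reads of macrophages and 0.431 to 0.479% to those of dendritic cells. Comparisons of macrophages with dendritic cells are given with that alternative for the levels of the 5 arms, start shares, arm ratios and tails. Paralogue levels and some other comparisons between cell types are given without it.

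miR-25-3p was by far the most abundant arm of the cluster. It had 9423, 10838 and 12214 CPM in macrophages (lowest, median and highest of 10 libraries) and 9115, 12739 and 16447 CPM in dendritic cells. By mean level it was number 21 among the miRNAs of macrophages and number 19 among those of dendritic cells. It made up 74.2 to 80.9% of the reads of the 5 arms, and the 5 arms together made up 1.15 to 2.1% of all miRNA reads. In all 20 libraries the order of levels was the same.

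miR-93-5p came second, with 1556, 2173 and 2412 CPM in macrophages and 1608, 2554 and 3179 CPM in dendritic cells. miR-106b-3p had 687.1, 783.1 and 913.2 CPM in macrophages and 671.3, 1048 and 1329 CPM in dendritic cells. miR-106b-5p, the arm that carries the miR-17 seed, had 78.4, 101.4 and 116.1 CPM in macrophages and 94.9, 122 and 154.3 CPM in dendritic cells. The ranges of neighbouring arms in this order do not overlap.

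The 2 arms opposite the dominant strands were rare. miR-93-3p had 9.66, 17.5 and 23.8 CPM in macrophages and 8.22, 35.2 and 41.5 CPM in dendritic cells. miR-25-5p had 1.25, 5.46 and 8.66 CPM in macrophages and 1.51, 8.78 and 14.2 CPM in dendritic cells, from 10 to 121 reads per library. A count of 3 reads, the limit that a count of 0 allows, is 0.255 to 0.592 CPM, so both were measured above the counting floor everywhere. Such levels also carry each sequence's own ligation and amplification efficiency, which was not measured, and counting intervals cover counting error only.

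**Figure D1:**
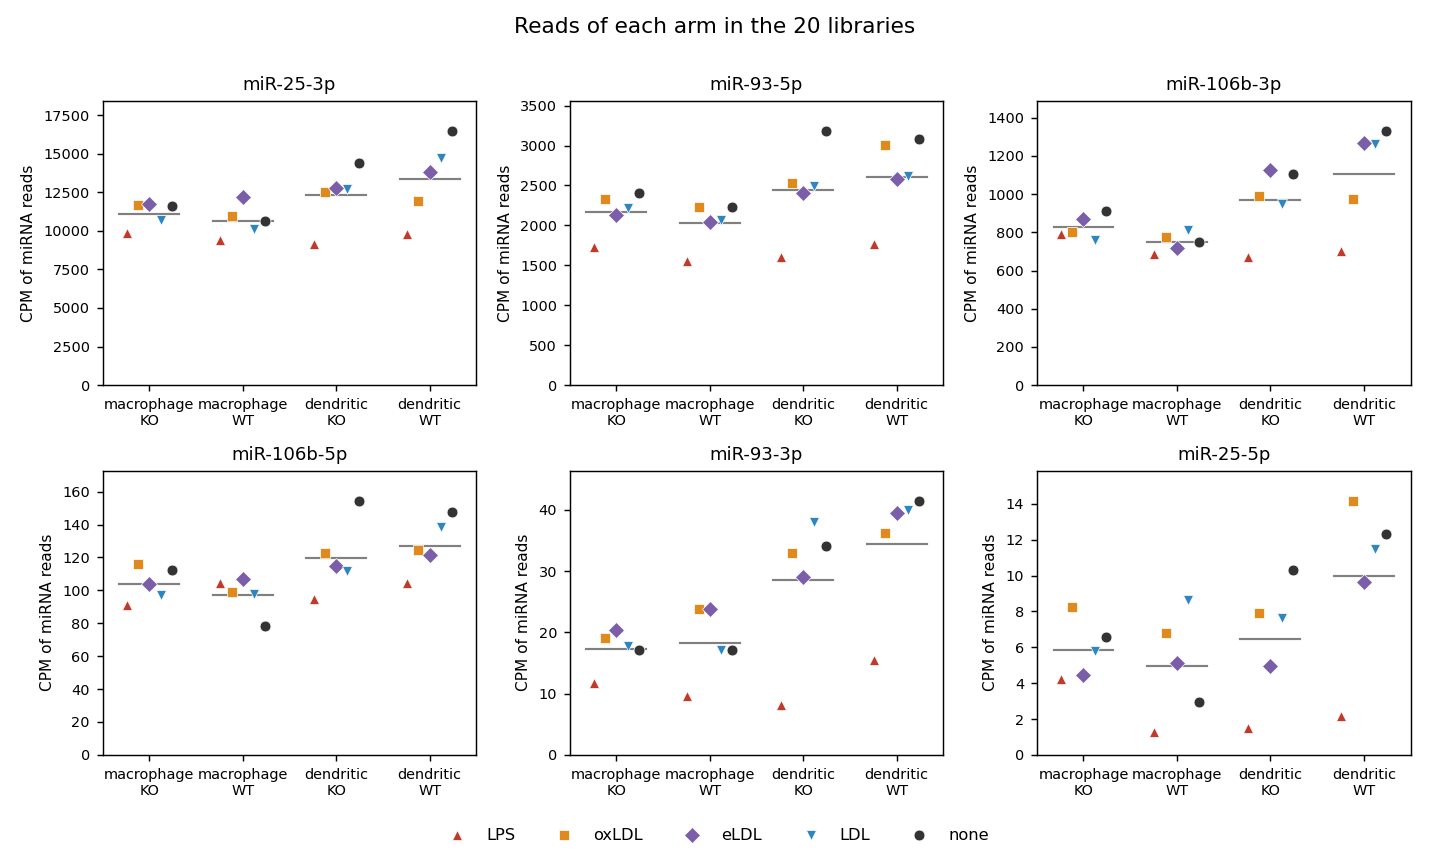
Reads of each arm as CPM of miRNA reads (vertical axes, each from 0) in the 4 cultures (KO and WT macrophages, KO and WT dendritic cells). Each symbol is 1 library and the grey line is the mean of the 5 stimulus states. By CPM the LPS library is the lowest of its culture in all 4 cultures for miR-93-5p, miR-93-3p, miR-25-3p and miR-25-5p. For miR-106b-5p and miR-106b-3p it is the lowest in 3 of 4. With the scaling between libraries that the tests use (TMM), it is the lowest in 4 for miR-93-5p and miR-93-3p. It is then the lowest in 3 for miR-25-3p and miR-25-5p, 2 for miR-106b-3p and 1 for miR-106b-5p. How many of all miRNAs do the same was not counted.

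The hairpins differed in which arm prevailed. In the miR-106b hairpin the 3p arm held 86.8 to 91.2% of the reads over the 20 libraries, so the arm with the miR-17 family seed was the minor product. In the miR-93 hairpin the 3p arm held 0.508 to 1.51%. In the miR-25 hairpin the 5p arm held 0.0133 to 0.119%. The dominant reads therefore carried the miR-17 seed from the miR-93 hairpin and the miR-25 seed from the miR-25 hairpin.

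The most abundant read equalled the RefSeq mature sequence for miR-106b-5p (35.62% of the arm's reads), miR-93-5p (80.83%) and miR-25-3p (87.92%). The most abundant miR-106b-3p read was 1 base shorter than RefSeq's, and the most abundant miR-93-3p and miR-25-5p reads were 1 base longer. No read of these arms matched another miRNA hairpin.

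miR-106b-3p was the arm with a mixed 5′ end. Over all libraries 75.02% of its reads began at the main start, against 95.05 to 98.86% in the other 5 arms of the 3 hairpins. The 22-nt read that starts 2 bases upstream alone made up 17.19% of the arm, and its seed is the shifted ACCGCAC printed above.

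The share of this upstream form differed between the genotypes in macrophages. It was 13.36, 15.97, 15.15, 13.29 and 15.2% in KO macrophages and 18.45, 19.44, 18.38, 20.87 and 19.52% in WT macrophages, in the order no stimulus, LPS, oxLDL, eLDL and LDL. All 5 KO libraries lay below all 5 WT libraries. In dendritic cells it was 22.98, 23.15, 23.13, 23.69 and 25.62% in KO and 21.89, 22.36, 23.32, 20.9 and 21.52% in WT, and the genotypes overlapped. The widest Wilson 95% interval of a library spans 1.17 percentage points to each side.

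The share at the main start was the counterpart, 80.9 ± 1.41% in KO and 75.95 ± 1.36% in WT macrophages (SD over 5 libraries each), and 71.4 ± 1.04% in KO and 72.6 ± 0.927% in WT dendritic cells. Tested with limma over the 140 arms with at least 200 reads in every library, it was 4.94 ± 0.70 percentage points (SE) higher in KO than in WT macrophages (adjusted p = 0.00868), where 2.14% of the arms were called. In dendritic cells it was not called (-1.26 ± 0.70 points, adjusted p = 0.763), where 1.43% were called. The difference between these genotype effects, macrophages minus dendritic cells, was 6.20 ± 0.996 points (limma, adjusted p = 0.0233), and miR-106b-3p was the single arm called of the 140, or 0.714%. This measure was chosen after the data had been seen. The genotype effect in macrophages was called in all 20 refits that left out 1 library (4.34 to 5.34 points), and the difference between cell types lost its call in 14 of the 20 (5.59 to 6.63 points, adjusted p 0.0285 to 0.0903).

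Between cell types the main start of miR-106b-3p was 6.42 ± 0.50 points more frequent in macrophages than in dendritic cells (limma, adjusted p = 1.38e-05), and 40.7% of the arms were called. With any base allowed at position 20 the difference was 7.04 points. For miR-25-3p the share at the main start was 97.4 to 97.74% in macrophages and 97.73 to 98.1% in dendritic cells, and its difference of -0.33 ± 0.08 points (limma, adjusted p = 0.0063) was not called with any base allowed at position 20.

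**Figure D2:**
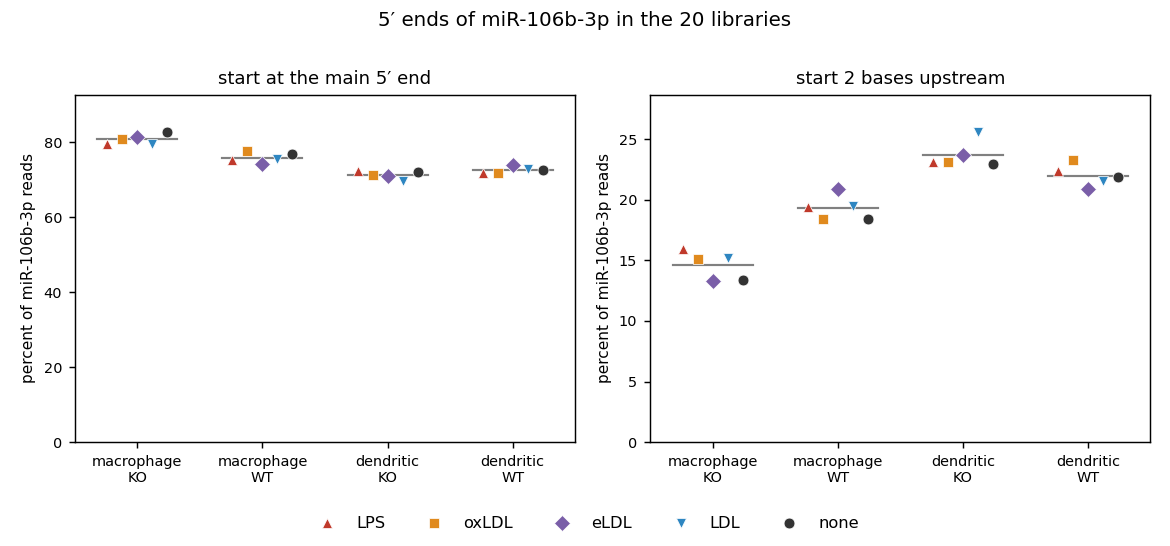
Percent of miR-106b-3p reads that begin at the main 5′ end (left) and 2 bases upstream (right) in the 4 cultures, with 1 symbol per library and the mean as a grey line. The upstream form lies between 13.29 and 15.97% in KO macrophages, below the 18.38 to 20.87% of WT macrophages, and between 20.9 and 25.62% in dendritic cells of either genotype.

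Under LPS miR-93-5p fell in both cell types and miR-93-3p in dendritic cells. In bulk RNA, fewer cells of a type and less RNA per cell cannot be told apart. miR-93-5p had 1608 CPM in KO and 1763 CPM in WT dendritic cells with LPS, against 3179 and 3083 CPM in the KO and WT cells without stimulus. In macrophages it had 1729 CPM in KO and 1556 CPM in WT with LPS, against 2412 and 2230 CPM without stimulus. Every LPS library lay below the unstimulated library of its culture. On the scaled counts the change was -0.49 ± 0.13 (log2, SE; edgeR adjusted p = 0.0125) in dendritic cells and -0.45 ± 0.13 (adjusted p = 0.0239) in macrophages.

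miR-93-3p had 8.22 CPM in KO and 15.5 CPM in WT dendritic cells with LPS, against 34.1 and 41.5 CPM without stimulus. It had 11.7 CPM in KO and 9.66 CPM in WT macrophages with LPS, against 17.2 and 17.1 CPM without stimulus. The groups did not overlap in either cell type, though with 2 libraries against 2 this carries little weight. The counts behind the LPS values were 77 to 136 reads. The fitted change was -1.30 ± 0.28 in dendritic cells (log2; edgeR adjusted p = 0.00232) and -0.63 ± 0.28 in macrophages (adjusted p = 0.128), where it was not called.

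The other listed arms were not called under LPS. miR-25-3p had 9115 CPM in KO and 9823 CPM in WT dendritic cells with LPS, against 14407 and 16447 CPM without stimulus, and the change after scaling was -0.30 ± 0.12 (edgeR adjusted p = 0.0864). miR-106b-3p had 671.3 CPM in KO and 701.6 CPM in WT dendritic cells with LPS, against 1107 and 1329 CPM without stimulus, and its scaled change was -0.42 ± 0.15 (edgeR adjusted p = 0.0583). These falls are smaller after scaling than in CPM. The TMM factors that scale the libraries were 0.8723 and 0.8777 for the LPS libraries of dendritic cells and 1.1079 and 1.2094 for their unstimulated ones. Scaled by total miRNA reads alone, which moved the median of all miRNAs by -0.40, all 5 arms were called lower in dendritic cells, miR-25-3p by -0.70 and miR-106b-3p by -0.82 (log2).

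In dendritic cells 2 of the 5 arms were therefore called lower with LPS, and 12.2% of the 378 tested miRNAs were; the median change was -0.42 over the 5 arms and -0.07 over all miRNAs. In macrophages 1 of 5 was called lower against 6.35% of all, with medians of -0.16 and 0.14. miR-25-5p, outside the list, had 1.51 CPM in KO and 2.16 CPM in WT dendritic cells with LPS, against 10.3 and 12.3 CPM without stimulus (log2 -2.24 ± 0.53, edgeR adjusted p = 0.00483). The call of miR-93-5p in dendritic cells was lost in refits without the unstimulated library of either genotype or the KO LPS library (adjusted p up to 0.133), and that of miR-93-3p without the KO LPS library (log2 -0.93, adjusted p = 0.0606). In macrophages the call of miR-93-5p was lost without either unstimulated library or the WT LPS library (adjusted p up to 0.162).

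The LPS response was not shown to differ between the cell types for any of the 5 arms: 0 were called for that difference, against 12.7% of all miRNAs. At an unadjusted p below 0.05, 93 of the 378 miRNAs passed and none of them was a listed arm, and DESeq2 called 0 of the 5. The largest difference was that of miR-93-3p, 0.66 ± 0.39 on the log2 scale, macrophages minus dendritic cells. Scaled by total miRNA reads, which moved the median of all miRNAs by 0.36, the difference was called for miR-106b-3p (0.65, edgeR adjusted p = 0.0214) and miR-25-3p (0.50, adjusted p = 0.0287).

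**Figure D3:**
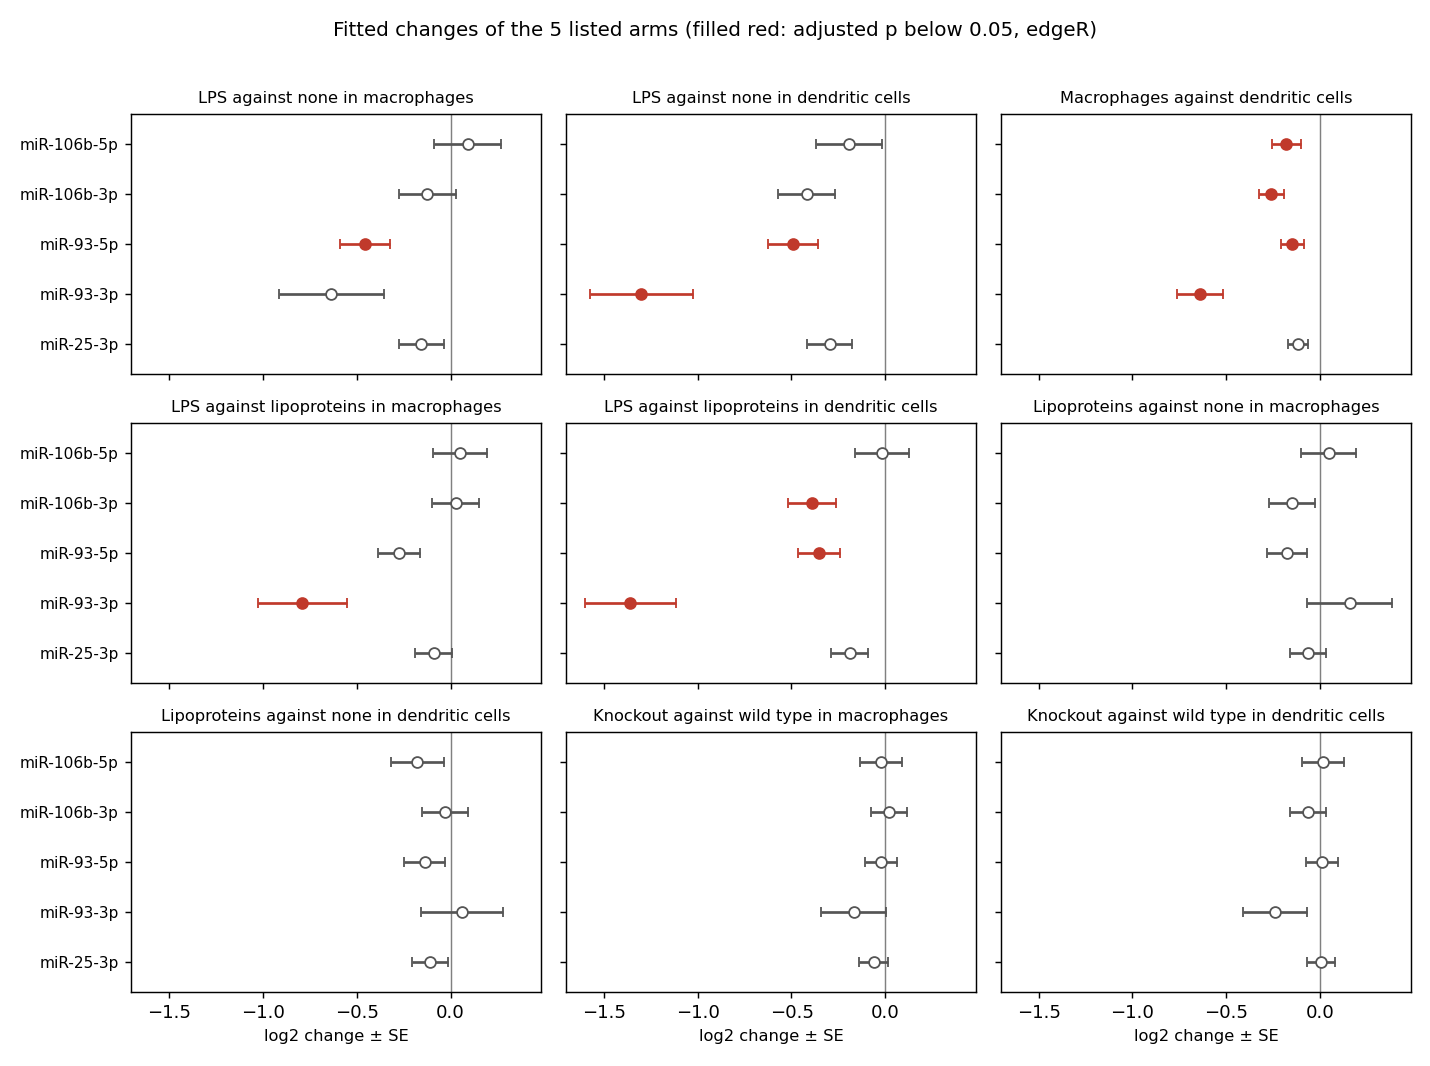
Fitted log2 change with its standard error (horizontal axis) of the 5 listed arms (rows) in 9 comparisons (panels), from edgeR over all 378 tested miRNAs. Filled red points have an adjusted p below 0.05; every such point is negative, and miR-93-3p with LPS in dendritic cells is at -1.30.

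Set against the 3 lipoproteins in place of the unstimulated cells, LPS went with less miR-93-3p in both cell types. The LPS libraries are those of the comparison with no stimulus, so the 2 comparisons are not independent. miR-93-3p had 8.22 CPM in KO and 15.5 CPM in WT dendritic cells with LPS, against 29.1 to 40.02 CPM in the 6 lipoprotein libraries (log2 -1.36 ± 0.24, edgeR adjusted p = 0.000401). In macrophages it had 11.7 CPM in KO and 9.66 CPM in WT with LPS, against 17.1 to 23.8 CPM with lipoproteins (log2 -0.79 ± 0.24, edgeR adjusted p = 0.0336). miR-106b-3p (-0.39 ± 0.13) and miR-93-5p (-0.35 ± 0.11) were also called lower in dendritic cells, with adjusted p of 0.0294 and 0.0266. So 3 of 5 arms were called lower in dendritic cells against 12.4% of all miRNAs, and 1 of 5 in macrophages against 4.76%. Calls were lost in some of the 20 refits that left out 1 library: that of miR-93-3p in macrophages in 6 (log2 -1.05 to -0.56 over all refits), that of miR-106b-3p in dendritic cells in 6 (-0.44 to -0.25) and that of miR-93-5p in dendritic cells in 5 (-0.44 to -0.22), in each case among others without the WT LPS library of that cell type.

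In dendritic cells with LPS the minor arms of the miR-93 and miR-25 hairpins fell more than their dominant partners. This was read from the ratio of 5p to 3p reads within a hairpin, which needs no scaling between libraries. In the miR-93 hairpin the log2 ratio was 7.60 in KO and 6.83 in WT dendritic cells with LPS, against 6.54 and 6.21 without stimulus. In the miR-25 hairpin, where the 5p arm is the minor one, it was -12.5 in KO and -12.1 in WT dendritic cells with LPS, against -10.4 and -10.4 without stimulus. These miR-25 ratios rest on 16 and 19 miR-25-5p reads with LPS, and on 86 and 85 without stimulus. In the miR-106b hairpin the log2 ratio was -2.82 in KO and -2.75 in WT with LPS, against -2.84 and -3.17 without stimulus. For miR-106b the nearest values of the LPS and the unstimulated libraries were the -2.82 and -2.84 of KO cells.

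Tested with limma over 77 hairpins with at least 10 reads on each arm in every library, the LPS change of the log2 ratio in dendritic cells was 0.84 ± 0.24 for miR-93 (adjusted p = 0.0262), -1.91 ± 0.43 for miR-25 (adjusted p = 0.0117) and 0.22 ± 0.22 for miR-106b (adjusted p = 0.478), where 16.9% of hairpins were called. Against lipoproteins in dendritic cells it was 1.04 ± 0.20 for miR-93, -1.80 ± 0.36 for miR-25 and 0.37 ± 0.18 for miR-106b, with limma adjusted p of 0.00426, 0.00524 and 0.165, where 22.1% were called. In macrophages none of the 3 was called against no stimulus, where 11.7% of hairpins were, or against lipoproteins, where 1.3% were. Against lipoproteins in macrophages the change was 0.52 ± 0.20 for miR-93 (limma adjusted p = 0.161) and -1.22 ± 0.36 for miR-25 (adjusted p = 0.128), in the direction seen in dendritic cells; the miR-25 change was called without the KO LPS library (-1.98, limma adjusted p = 0.0125) and without the KO LDL library (-1.44, limma adjusted p = 0.0368). The change in macrophages against no stimulus was 0.19 ± 0.24 for miR-93 and -0.71 ± 0.43 for miR-25, and the difference between cell types was not called (limma adjusted p = 0.28 for both). Both dendritic cell calls rest on few libraries: the miR-93 call was lost without either unstimulated library or the KO LPS library (0.52 to 1.16 over all refits), and the miR-25 call without the WT LPS or the KO unstimulated library (-2.19 to -1.63). Against lipoproteins the miR-93 call was lost without the KO LPS library (0.72 to 1.36) and the miR-25 call without either LPS library (-1.88 to -1.72). These stimulus tests of the ratio were chosen after the data had been seen.

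**Figure D4:**
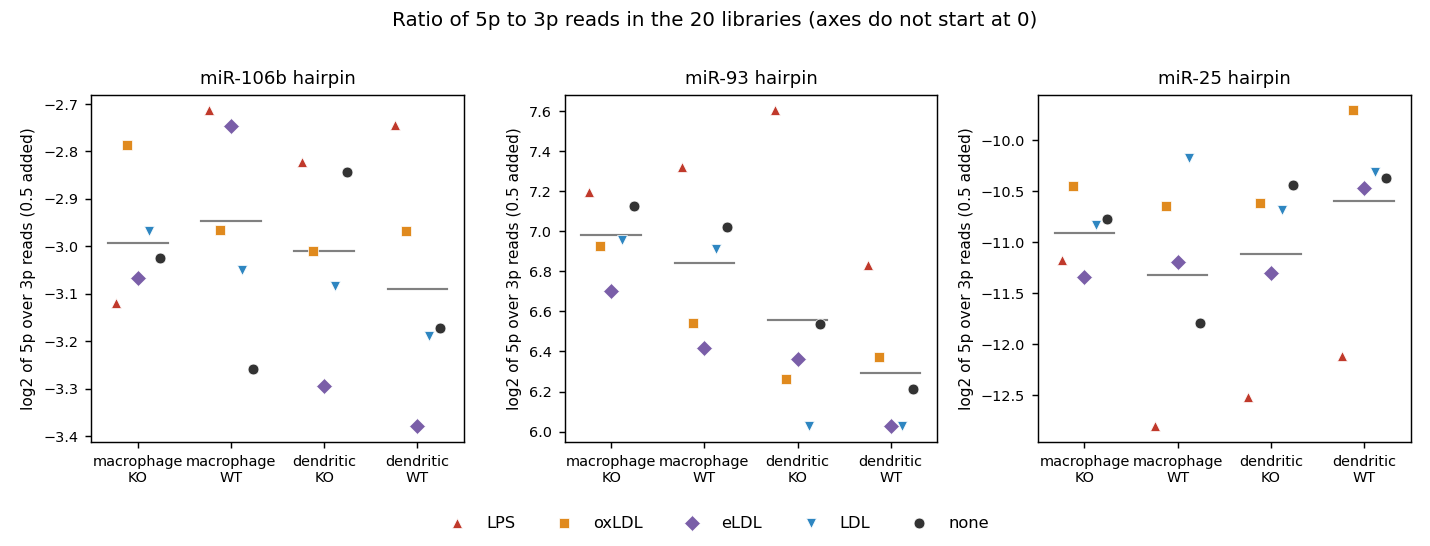
Log2 of 5p over 3p reads (0.5 added to each count) of the 3 hairpins in the 4 cultures; axes do not start at 0, each symbol is 1 library and the grey line is the mean of the 5 stimulus states. In dendritic cells the LPS libraries are the highest of the miR-93 hairpin (7.60 and 6.83) and the lowest of the miR-25 hairpin (-12.5 and -12.1).

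Between the cell types 4 of the 5 arms were called lower in macrophages, where 37.6% of all miRNAs were, and miR-25-3p, which holds most of the cluster's reads, was not. Over 10 pairs of libraries matched on genotype and stimulus, the change, macrophages over dendritic cells, was -0.64 ± 0.12 for miR-93-3p (log2, SE; edgeR adjusted p = 0.000151), -0.26 ± 0.07 for miR-106b-3p (adjusted p = 0.00205), -0.18 ± 0.08 for miR-106b-5p (adjusted p = 0.0452) and -0.15 ± 0.06 for miR-93-5p (adjusted p = 0.0313). Each was lower in macrophages in 9 of 10 pairs. miR-25-3p was lower in 7 of 10 pairs and not called (-0.12 ± 0.05, adjusted p = 0.0526), but it was called lower under 6 of the other settings, among them total miRNA reads (-0.22) and DESeq2 (-0.17).

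With no filter on low counts 2 of the 5 were called. The median change was -0.18 over the 5 arms and 0.07 over all miRNAs. With any base at position 20 these 4 arms were called again (miR-93-3p -0.60, miR-106b-3p -0.26, miR-106b-5p -0.18 and miR-93-5p -0.20), and miR-25-3p was at -0.09. Upper-quartile scaling moved the median of all miRNAs by -0.35, and all 5 arms were then called lower. The calls of miR-106b-5p and miR-93-5p were lost in 14 and 10 of 20 refits that left out 1 library, with changes of -0.24 to -0.13 and -0.18 to -0.10. The miR-93 hairpin's log2 5p over 3p ratio averaged 6.91 in macrophages and 6.43 in dendritic cells, a mean difference of 0.49 over the pairs (SD 0.40, higher in 9 of 10 pairs; exact sign-flip permutation test over pairs, two-sided, p = 0.00977, adjusted p = 0.0376), where 28.6% of the 77 hairpins were called. With any base at position 20 that difference was 0.40 and no longer called (exact adjusted p = 0.0578), and it was called in 1 of 10 refits that left out a pair. By limma, chosen after the data had been seen, the same difference was called as reported (adjusted p = 0.0036, where 44.2% of hairpins were called), with any base at position 20 (adjusted p = 0.0114) and in all 20 refits that left out 1 library (0.42 to 0.55). The miR-106b and miR-25 ratios were not called (differences of 0.08 and -0.27, exact adjusted p = 0.521 and 0.418). With any base at position 20 they were not called either (0.07 and -0.24, exact adjusted p = 0.581 and 0.468).

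Lipoproteins moved none of the 5 arms past the threshold. Over oxLDL, eLDL and LDL against no stimulus, changes in dendritic cells ran from -0.18 ± 0.14 (miR-106b-5p) to 0.06 ± 0.22 (miR-93-3p), with 0 of 5 called against 0.529% of all miRNAs. In macrophages they ran from -0.18 ± 0.11 (miR-93-5p) to 0.16 ± 0.22 (miR-93-3p), with 0 of 5 called against 11.9% of all miRNAs. For the difference between cell types 0 of 5 were called, against 6.35% of all. At an unadjusted p below 0.05, 44, 91 and 64 miRNAs passed in these comparisons and no listed arm was among them, and DESeq2 called 0 of the 5 in each. With upper-quartile scaling miR-93-5p was called lower in macrophages (-0.39, edgeR adjusted p = 0.0161). The comparisons with no stimulus share the unstimulated libraries with those of LPS.

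Loss of miR-155 moved the level of none of the 5 arms past the threshold. Over 5 pairs, KO over WT, changes in macrophages ran from -0.17 ± 0.17 (miR-93-3p) to 0.02 ± 0.10 (miR-106b-3p), with 0 of 5 called against 24.3% of all miRNAs. In dendritic cells they ran from -0.24 ± 0.17 (miR-93-3p) to 0.01 ± 0.11 (miR-106b-5p), with 0 of 5 called against 8.47%. The difference between cell types was called for 0 of 5 against 15.3%. At an unadjusted p below 0.05, 126, 86 and 92 miRNAs passed and no listed arm did, and DESeq2 called 0 of the 5 in each. For miR-25-3p the change was -0.06 ± 0.08 in macrophages and 0.00 ± 0.08 in dendritic cells. Upper-quartile scaling moved the median of all miRNAs by 0.28 in the macrophage comparison, and miR-106b-3p (0.30) and miR-93-5p (0.25, where the reported change is -0.03) were then called higher. Of the 77 hairpins 0% were called for the arm ratio between genotypes by the exact permutation test over 10 pairs; that of miR-93 was 6.77 in KO and 6.57 in WT, with an exact p of 0.043 and an exact adjusted p of 0.301.

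Bases at the 3′ end that do not match the hairpin were frequent on several arms. Nucleotidyl transferases add such bases to finished miRNAs. Read errors and leftover adapter bases would be counted alike, and their part was not tested. Counted from base 21 on, with any base at position 20, tails of 1 to 3 bases that do not match the hairpin were on 22.74% of miR-106b-3p, 20.12% of miR-93-3p, 13.13% of miR-106b-5p, 9.70% of miR-25-3p and 5.62% of miR-93-5p reads over all libraries. miR-93-3p had too few reads in single libraries to be tested. Among 1-base tails of miR-25-3p, 58.42% were U, 28.28% A, 9.67% G and 3.64% C. Among those of miR-93-5p, 40.6% were U, 51.17% A, 2.97% G and 5.27% C.

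In dendritic cells tails were more frequent with LPS on 3 of the 4 tested arms. On miR-25-3p they were 12.12% in KO and 11.13% in WT dendritic cells with LPS, against 9.83 and 9.11% without stimulus. The widest Wilson 95% interval for miR-25-3p in a library spans 0.211 points to each side. By limma over 156 arms the difference was 2.16 ± 0.37 points for miR-25-3p (adjusted p = 0.00381), 3.76 ± 0.99 for miR-106b-3p (adjusted p = 0.0317) and 2.36 ± 0.66 for miR-93-5p (adjusted p = 0.0351). miR-106b-5p was not called (5.14 ± 2.39 points, limma adjusted p = 0.159). The 3 called arms of 4 stand against 24.4% of all arms, with 32 of 38 calls higher. The calls of miR-106b-3p and miR-93-5p were lost in 3 and 7 of 20 refits that left out 1 library (2.70 to 4.81 and 1.73 to 3.001 points), and that of miR-25-3p in none (2.04 to 2.28 points). Against lipoproteins in dendritic cells the same 3 arms were called higher, by 1.44, 4.41 and 1.99 points in that order (limma adjusted p = 0.00998, 0.00555 and 0.027), where 23.1% of arms were called; without the WT LPS library all 3 lost that call, without the KO LPS library miR-25-3p and miR-93-5p did, and without the WT oxLDL or WT LDL library miR-93-5p did (over all refits 1.32 to 1.56, 3.75 to 5.08 and 1.36 to 2.63 points). In macrophages no member was called with LPS, where 8.33% of arms were, and a difference between cell types in this response was called by limma for 0 of the 156 arms, with an unadjusted p of 0.0055 for miR-106b-3p and 0.0111 for miR-25-3p. These limma tests were chosen after the data had been seen.

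Tails on miR-25-3p also differed with genotype in macrophages. They were 9.90, 9.77, 9.60, 9.68 and 9.99% in KO and 7.85, 8.95, 8.37, 8.07 and 9.05% in WT macrophages, in the order no stimulus, LPS, oxLDL, eLDL and LDL, with no overlap. The difference was 1.33 ± 0.24 points (limma adjusted p = 0.00641) in macrophages, where 15.4% of arms were called, and 0.81 points (limma adjusted p = 0.148) in dendritic cells, where 1.92% were called. Of the 24 arms called in macrophages 19 were higher in KO, and the median difference over all arms was 0.40 points. In dendritic cells all 3 called arms were higher in KO. The call of miR-25-3p in macrophages was kept in all 20 refits that left out 1 library (1.15 to 1.46 points). Over all 10 pairs KO was higher in 10, by 1.07 points (10.3% in KO, 9.19% in WT), and the exact permutation test gave p = 0.00195, the smallest it allows, with an exact adjusted p of 0.0508 and 0% of the 156 arms called. Without the allowance at position 20 the same test gave 0.83 points, higher in KO in 9 of 10 pairs (exact adjusted p = 0.0673), again with 0% of arms called.

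Between cell types tails from base 21 on were on 9.12% of miR-25-3p reads in macrophages and 10.3% in dendritic cells (difference of -1.21 points, exact permutation test over 10 pairs, adjusted p = 0.0132), where 52.6% of arms were called, and 3 other arms (miR-106b-5p, miR-106b-3p and miR-93-5p) were not called. Counted wherever the match ends, all 4 arms had more tails in macrophages, for miR-25-3p 21.5% against 10.6% in dendritic cells (exact adjusted p = 0.00336), and 75.5% of arms were called. That count takes in reads of up to 22 nt with a wrong base at position 20, and counted from base 21 on all 4 differences had the opposite sign.

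**Figure D5:**
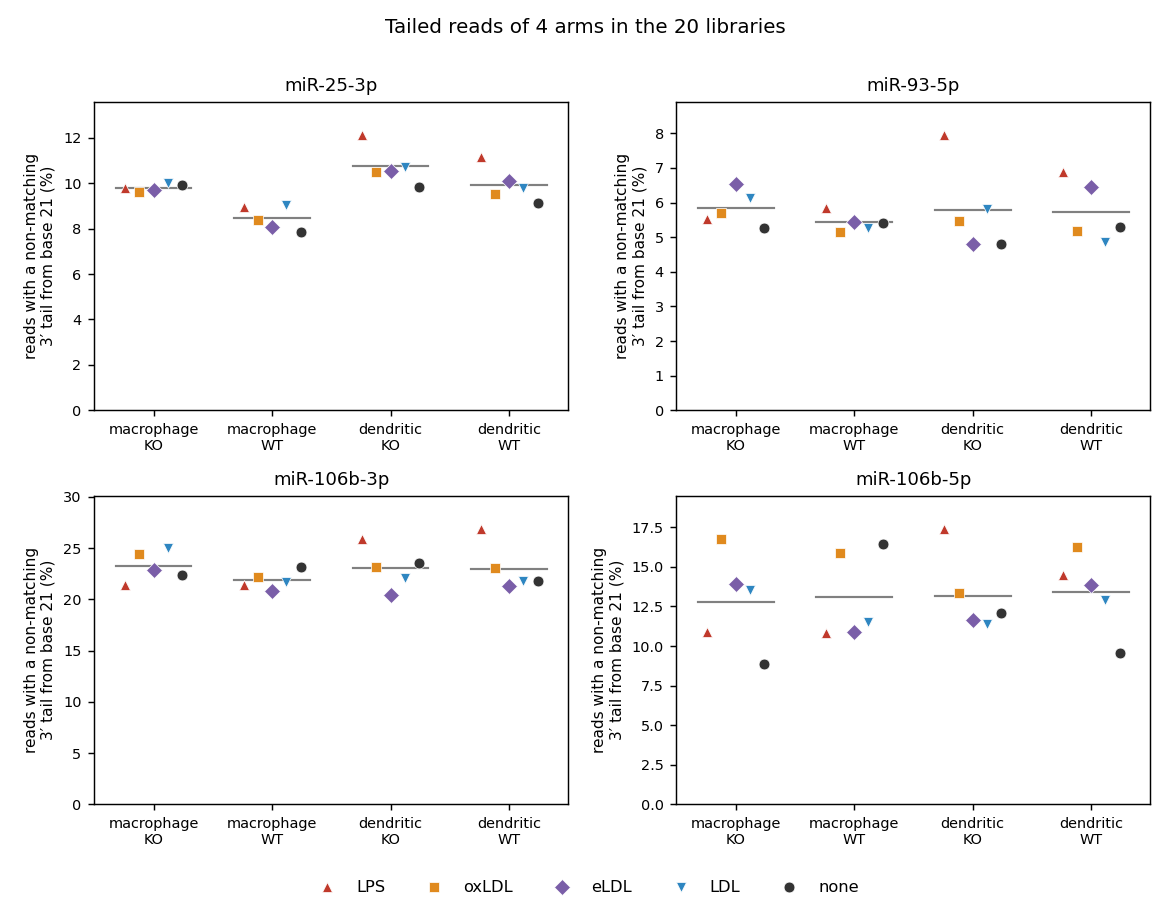
Percent of reads with a 3′ tail of 1 to 3 bases that does not match the hairpin, counted from base 21 on, for 4 arms in the 4 cultures (vertical axes from 0); each symbol is 1 library and the grey line is the mean of 5. For miR-25-3p the KO macrophages lie between 9.60 and 9.99%, above the WT macrophages at 7.85 to 9.05%, and the LPS libraries are the highest of the dendritic cells in each genotype.

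Paralogues with the same seeds did not follow the cluster between cell types. Of the 6 named miRNAs with the miR-17 seed, 4 were tested: miR-106b-5p and miR-93-5p were called lower in macrophages and miR-17-5p (0.23 ± 0.07, edgeR adjusted p = 0.0079) and miR-20a-5p (0.19 ± 0.07, edgeR adjusted p = 0.0187) higher, where 42.1% of all miRNAs were higher. Under upper-quartile scaling the median of all miRNAs moved by -0.35, more than the size of those 2 higher values. miR-93-5p was the most abundant of them, at a median of 2173 CPM in macrophages and 2554 CPM in dendritic cells, against 513.7 and 522.5 CPM for miR-20a-5p and 374.2 and 334.5 CPM for miR-17-5p. With LPS in dendritic cells 2 of the 4 were lower, miR-93-5p and miR-20a-5p (-0.44 ± 0.15, edgeR adjusted p = 0.0441), against 12.2% of all miRNAs, and with LPS in macrophages only miR-93-5p of the 4 was called, against 6.35%.

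Of the 6 named miRNAs with the miR-25 seed, 4 were tested, and the other 3 besides miR-25-3p were called higher in macrophages, where 42.1% of all miRNAs were. miR-92a-3p, of the miR-17 and miR-106a clusters, was the most abundant miRNA with this seed, with 25147, 37816 and 55287 CPM in macrophages (lowest, median and highest) and 20565, 27541 and 30605 CPM in dendritic cells (log2 0.65 ± 0.09, edgeR adjusted p = 3.55e-06). With LPS in dendritic cells miR-92a-3p was not called (0.35 ± 0.20, edgeR adjusted p = 0.231). Of the 12 arms of the miR-17 cluster 10 were tested, and 7 were higher and 0 lower in macrophages (median 0.48), against 42.1% higher and 37.6% lower of all miRNAs. With LPS 2 of the 10 were lower in dendritic cells, against 12.2% of all, and 0 were called in macrophages, against 6.35% lower of all. Of the 12 named arms of the miR-106a cluster 7 had reads and only the 2 whose sequence is shared with the miR-17 cluster, miR-19b-3p and miR-92a-3p, were tested.

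Across stimuli and genotypes the pairs of arms differed in how closely their levels ran together, over 10 libraries of each cell type. Pearson's r of log2 scaled CPM between miR-93-3p and miR-25-3p was 0.74 in macrophages and 0.78 in dendritic cells, between miR-93-5p and miR-93-3p 0.68 and 0.76, and between miR-93-5p and miR-25-3p 0.58 and 0.67. For miR-106b-3p with miR-25-3p it was 0.26 in macrophages and 0.82 in dendritic cells, and with miR-93-3p -0.01 and 0.79. Between miR-106b-5p and miR-106b-3p, from the same hairpin, it was 0.10 and 0.16. These are descriptions; libraries of a stimulus and of a genotype are shared among the points, and miR-106b-5p had 563 to 1288 reads per library. The other miRNAs whose pattern was most like the mean of the 5 arms were miR-223-3p, miR-30e-3p, miR-700-3p, miR-16-1-3p and miR-6539-5p. Their mean r of the 2 cell types was 0.83, 0.83, 0.83, 0.81 and 0.79 in that order, over 10 libraries of each cell type. The 5 arms, which are part of that mean, had 0.92 (miR-93-3p), 0.85 (miR-25-3p), 0.84 (miR-93-5p), 0.62 (miR-106b-3p) and 0.28 (miR-106b-5p). The named miRNAs thus ran closer to the mean than miR-106b-3p and miR-106b-5p did.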

How the data were processed

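Per the labels' protocols, total RNA in Trizol went into TruSeq small RNA libraries. The deposited files give the count of reads of every distinct sequence (18 to 45 nt); how adapters were trimmed is not stated. The submitters' processing notes list CASAVA 1.8.2; its role is not stated. The members and lists were chosen with earlier results of these data known, and the rule for named miRNAs was the arms of the 3 hairpins, their seed and cluster paralogues, and the 5 most alike by correlation. Sequences of 18 to 26 nt were matched exactly to the 1178 miRNA hairpins of GENCODE M21 (GRCm38), the arm set by the RNAfold 2.7.2 loop, with starts within 2 nt of the arm's main 5′ end and reads of several miRNAs divided equally (0.1473% of reads). Counts of the 378 miRNAs that reached 5 CPM in 2 or more libraries were fitted with edgeR 4.0.16 (R 4.3.3; TMM, robust quasi-likelihood F test, Benjamini-Hochberg at 0.05) with culture and stimulus within cell type as terms and 8 residual degrees of freedom; the standard error is the log2 change over the square root of F. Shares and arm ratios were tested by exact two-sided sign flips over 10 matched pairs (1024 patterns) and by limma 3.58.1 with the same terms. Scaling, filter, DESeq2 1.42.0, matching rules and each library left out were tried as alternatives. On simulated data the test of LPS in dendritic cells recovered 93 of 100 changes of log2 size 1, with 5 false calls among 150 unchanged miRNAs. The simulated spread was smaller than the common spread that edgeR fitted to the data, and changes below log2 size 1 were not simulated. The recovery therefore does not apply to smaller changes, such as those of miR-93-5p, miR-106b-3p and miR-25-3p with LPS.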

Additional observations from a re-analysis of the deposited data

Results flagged for a closer look

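The genotype effect on the share of miR-106b-3p reads at the main 5′ end was called different between the cell types. KO minus WT was 6.20 percentage points larger in macrophages than in dendritic cells (SE 0.996, limma adjusted p = 0.0233). That call was lost in most refits that left out 1 library, and the measure was chosen after the data had been seen. Sets of 5 or 10 matched pairs were also searched for a pair far from the others, in 39 sets, of which chance flags about 1 in 20, and 3 were marked. The log2 difference of miR-93-3p, KO minus WT, was -0.90 in dendritic cells with LPS, against -0.18 to 0.08 under the other stimuli. Its log2 difference, macrophages minus dendritic cells, was 0.42 in the KO pair with LPS and -1.12 to -0.47 in the other pairs. The KO dendritic cell library with LPS, which is in both, held 87 miR-93-3p reads. The tailed share of miR-106b-5p, KO minus WT in macrophages, was -7.63 points without stimulus and 0.02 to 3.08 points with the stimuli.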

How the results depend on the processing

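The number of the 5 arms that passed the threshold changed by more than 1.5 times under these settings. For macrophages against dendritic cells (4 arms) it was 2 with no filter on low counts. For LPS in dendritic cells (2) it was 5 with total miRNA reads as the scale and 1 with no filter. For LPS in macrophages (1) it was 3 with DESeq2 and 2 with tailed reads added. For the difference of these LPS effects (0) it was 2 with total miRNA reads. For LPS against lipoproteins in dendritic cells (3) it was 1 with upper-quartile scaling, with no filter and with reads of a single miRNA only. For the same in macrophages (1) it was 2 with RLE scaling, total miRNA reads, DESeq2 and tailed reads added, and 0 with upper-quartile scaling and no filter. With upper-quartile scaling it was 1 for lipoproteins in macrophages and 2 for genotype in macrophages (0 as reported for both), where miR-93-5p turned to 0.2545 (log2, edgeR adjusted p = 0.0214). The arm ratio between cell types (1 hairpin) gave 0 with any base at position 20, a setting chosen after the data had been seen.

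The tailed share between cell types (4 arms) gave 1 with tails of exactly 1 base, where miR-25-3p turned to -0.2499 points, and 1 with tails from base 21 on (also chosen after the data had been seen), where the differences turned to -0.3470 for miR-106b-5p, -0.4575 for miR-106b-3p, -0.1250 for miR-93-5p and -1.2076 for miR-25-3p. The cause of these changes was not tested.

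Leaving out each library in turn gave 2 to 5 arms between cell types, 0 to 3 for LPS in dendritic cells, 0 to 1 for LPS in macrophages, 1 to 3 and 0 to 2 for LPS against lipoproteins in dendritic cells and macrophages, 0 to 1 hairpins for the arm ratio and 4 arms for the tailed share between cell types, and 0 for the other comparisons. Of the values of single arms and hairpins, 578 stayed on their side of the threshold under the other settings, 15 lost and 24 gained the call, and 6 changed sign with a call on either side; in the refits without 1 library the numbers were 2091, 96, 13 and 0. Values not called could change sign within the first of these numbers, as for miR-106b-5p with LPS in macrophages (0.0915, range -0.1554 to 0.3385). LPS against no stimulus rests on 2 pairs of libraries in each cell type, and miR-93-3p and miR-25-5p on as few as 77 and 10 reads per library.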

Other observations

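miR-25-5p, the minor arm of the miR-25 hairpin, had 7.898 and 14.16 CPM with oxLDL, 4.984 and 9.667 CPM with eLDL, and 7.62 and 11.48 CPM with LDL in KO and WT dendritic cells, and was higher in WT than in KO dendritic cells under all 5 stimulus states. The genotype change, KO over WT, was -0.52 ± 0.32 on the log2 scale and not called (edgeR adjusted p = 0.353). miR-92b-3p, which has the seed of miR-25-3p, was higher with LPS in both cell types. The change was 4.12 ± 0.57 in dendritic cells and 1.90 ± 0.50 in macrophages (log2, edgeR adjusted p = 8.77e-05 and 0.0136). It was a rare miRNA, with 1.078 to 31.92 CPM over the dendritic cell libraries and 3.395 to 34.02 CPM over those of macrophages. These changes therefore start from low counts.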
